A study of Mus musculus with 6 samples.

Results

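The genes described here are Aldh1l2 and the enzymes of serine synthesis and folate one-carbon metabolism in small intestinal organoids of the mouse. They were chosen by symbol, as Aldh1l2 together with every listed gene whose symbol starts with Mthfd, Shmt, Psat or Phgdh, and Aldh1l2 drew attention because of its large difference in these same libraries. This gave 6 of the 1420 genes of the deposited table: Aldh1l2, Mthfd2, Mthfd1l, Shmt2, Psat1 and Phgdh. Of their relatives, Shmt1, Mthfd1 and Mthfd2l are not among the listed genes and were not analysed here.

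Organoids are closed epithelial structures grown in Matrigel from intestinal crypts, here in medium with EGF, Noggin and R-spondin-1. Passaged organoids were broken up, reseeded and harvested 5 days later, with RNA taken from some 600 organoids for each condition. Poly(A) RNA was sequenced as 50 bp paired-end reads from 3 libraries of wild type mice (WT) and 3 libraries of Smarcad1 knockout mice (KO), all on a C57BL/6 background. Smarcad1 is an ATP-dependent chromatin remodeller, and the study asked how its loss changes epithelial gene expression away from microbiota and immune cells. The sources disagree on the driver of the deletion: the genotype label names Vil-Cre, which acts in the intestinal epithelium, whereas the growth protocol and the methods name ZP3-Cre, which acts in the oocyte and deletes the gene in all cells, with littermates as controls. The age and number of the mice are not given in the sources used here, and nothing says whether the 3 libraries of a group came from separate animals, so that errors and tests measure only the spread between these libraries.

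In cells, Phgdh, Psat1 and Psph make serine from an intermediate of glycolysis. In mitochondria, Shmt2 moves a carbon unit from serine to tetrahydrofolate, Mthfd2 oxidises that unit, Mthfd1l releases it as formate, which leaves for the cytosol to serve purine and thymidine synthesis, and Aldh1l2 instead oxidises it to carbon dioxide, with formation of NADPH. Many of these genes belong to the amino acid response, a set of genes that the transcription factor ATF4 turns on when amino acids are short or the integrated stress response is active. Dividing cells such as those of the crypt are heavy users of the carbon units.

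Values are RPM, read counts that the authors scaled to the total reads of each library. The inferred depth was between 1.24e+07 and 1.57e+07 reads per library, and 1 read was worth between 0.0639 and 0.0805 RPM. Smarcad1 itself was left at 22.6% of its WT level. The table holds only genes that the authors had called different between KO and WT, so each difference between these groups is described here without a test, and being listed is no evidence of its own. In a limma fit over the whole table, 99.9% of the genes had an adjusted p-value under 0.05, as had 6 of the 6 members, and nothing is read from that number. The 3 KO values all lay below the 3 WT values in 47.2% of the listed genes, and in 6 of the 6 members.

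All 6 members were lower in KO. The median of their log2 changes was -0.91, against -0.56 over the 673 listed genes that were lower in KO. Without Aldh1l2, whose difference drew attention to these genes, it was -0.69. Log2 changes are differences of group means of log2(RPM + 0.1), given with the standard error of the limma fit, and this scale slightly understates the change of low genes.

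Aldh1l2, the mitochondrial formyltetrahydrofolate dehydrogenase, lies on chromosome 10 from 83487450 to 83534140 on the minus strand (GRCm38), with 23 exons in its longest annotated transcript. It was measured at 49.5, 47.5 and 48.1 RPM in WT replicates 1 to 3 and at 4.43, 8.03 and 20.3 RPM in KO replicates 1 to 3. The WT libraries were nearly alike, the KO libraries were far apart, and the groups did not overlap, as in 98.5% of the listed genes. This gave a log2 change of -2.41 ± 0.50 (SE), and the KO mean was 10.9 ± 8.33 RPM against 48.4 ± 1.02 RPM in WT (SD, n = 3 each). By the size of this fall Aldh1l2 stood at place 22 of the 1420 genes. The change was -1.91 without KO replicate 1 and -2.998 without KO replicate 3. Along 1056 of its 7503 exon bases the gene overlaps D10Wsu102e, a gene on the other strand that is not among the listed genes. The libraries kept strand, but whether the counting used it is not stated, so reads of the pair may be mixed there.

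Mthfd2, which carries the dehydrogenase and cyclohydrolase steps in mitochondria, was at 210.5, 169 and 219 RPM in WT and at 80.8, 85.5 and 109 RPM in KO (chromosome 6, 83305691 to 83325908, minus strand). Its log2 change of -1.12 ± 0.16 was the largest fall among the mitochondrial members after Aldh1l2. Mthfd1l, the mitochondrial formate-tetrahydrofolate ligase, was at 121, 119 and 126 RPM in WT and at 61.02, 81.4 and 89.1 RPM in KO (chromosome 10, 3973118 to 4167081, plus strand). Here the WT libraries were close together and KO replicate 1 was the lowest, and the log2 change was -0.68 ± 0.16. Shmt2, the mitochondrial serine hydroxymethyltransferase, was at 554, 533 and 572 RPM in WT and at 327, 340.5 and 374 RPM in KO (chromosome 10, 127517123 to 127522444, minus strand). Its log2 change of -0.67 had the smallest standard error of the members, 0.10. Shmt2 shares 32 exon bases with Ndufa4l2 on the other strand.

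Of the cytosolic members, Psat1, the aminotransferase of serine synthesis, was at 374, 342 and 384 RPM in WT and at 119.5, 126 and 208 RPM in KO (chromosome 19, 15904678 to 15947337, minus strand). KO replicate 3 stood well above the other KO libraries, and still below each WT library. The log2 change of Psat1 was -1.32 ± 0.22. Phgdh, the dehydrogenase that opens serine synthesis, was at 168, 159 and 207 RPM in WT and at 109, 104 and 115 RPM in KO (chromosome 3, 98313170 to 98339990, minus strand). It was the member with the least spread over KO, and its spread was larger in WT (CV 14.3%) than in KO (CV 5.45%). The log2 change of Phgdh was -0.69 ± 0.13. Psph, which completes the synthesis of serine and was taken from the wider pathway list, was at 45.1, 32.8 and 55.02 RPM in WT and at 24.7, 24.7 and 26.2 RPM in KO. Its WT libraries were far apart, and its KO libraries lay below each of them.

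**Figure D1:**
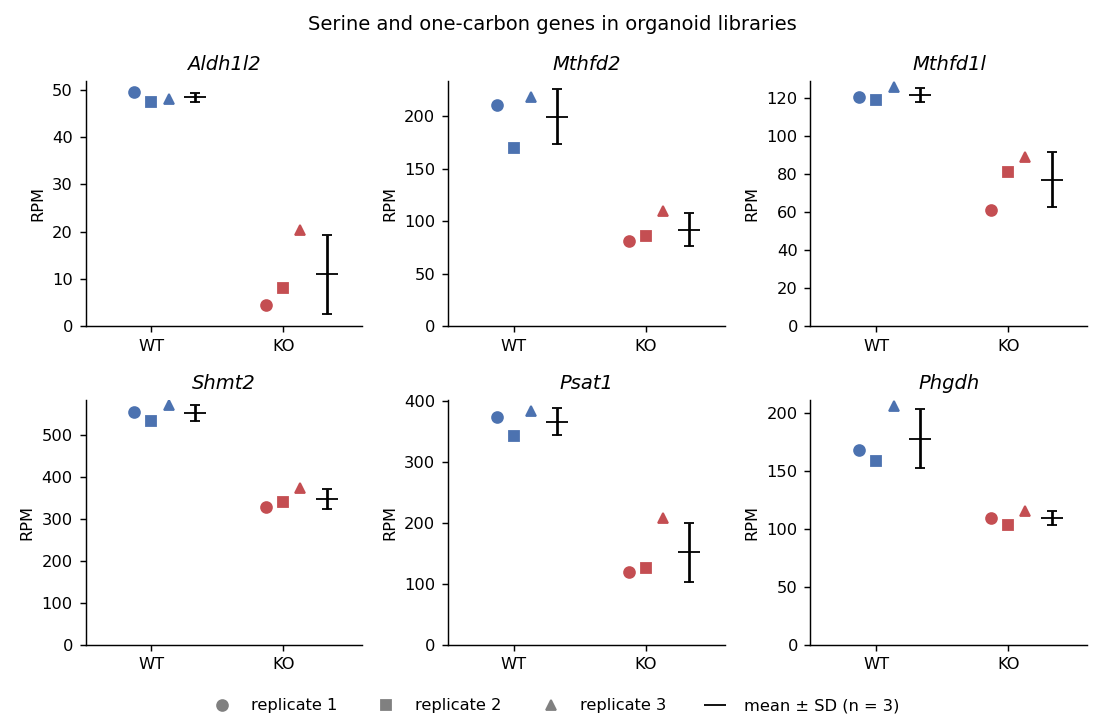
RPM of each member in every library, with WT libraries in blue, KO libraries in red, the symbol shape giving the replicate and the black bar the mean ± SD (n = 3). In each panel the KO libraries lie below the WT libraries, and Aldh1l2 runs from 4.43 to 20.3 RPM within KO.

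Levels were compared between genes per kilobase of summed exon length. In WT the order ran from Shmt2 at 178 ± 6.22 RPM per kilobase over Psat1 at 86.2 ± 5.13, Phgdh at 71.5 ± 10.2, Mthfd2 at 57.2 ± 7.57 and Mthfd1l at 27.5 ± 0.81 to Aldh1l2 at 6.45 ± 0.14 RPM per kilobase (SD, n = 3 each). The intervals of mean ± SD of Psat1 and Phgdh overlapped, as did those of Phgdh and Mthfd2, but within each of the 3 WT libraries the order of these genes was the same. Aldh1l2 was thus the member with the lowest level per length already in WT. In KO the order was Shmt2 at 112 ± 7.73, Phgdh at 44.0 ± 2.40, Psat1 at 35.6 ± 11.6, Mthfd2 at 26.4 ± 4.402, Mthfd1l at 17.4 ± 3.27 and Aldh1l2 at 1.46 ± 1.11 RPM per kilobase. Phgdh then came before Psat1, but only in 2 of the 3 KO libraries, and their intervals of mean ± SD overlapped. Those of Psat1 and Mthfd2 overlapped too, with Psat1 above Mthfd2 in each KO library.

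The KO libraries differed in how much of each gene was left. Aldh1l2 was at 9.15% of its WT mean in KO replicate 1, at 16.6% in replicate 2 and at 42.004% in replicate 3. The ratio of KO replicate 3 to KO replicate 1 was 4.59 (95% interval 3.43 to 6.24, counting error only), from 290 and 55 inferred reads. On the log2 scale this difference of 2.17 was exceeded by 2 of the 1420 genes, Csgalnact1 and Rims4. Both were below 5 RPM in the WT mean and were named after their values were seen. In KO replicate 1 they stood at 0 and 0.0805 RPM, so the size of their differences depends on the added 0.1 RPM. With 1 RPM added instead, the difference of Aldh1l2 was 1.97. The coefficient of variation of Aldh1l2 was 76.3% over KO and 2.12% over WT, against medians of 13.4% and 8.34% over the table.

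The other members spread less. Psat1 was left at 32.6%, 34.5% and 56.8% of its WT mean in KO replicates 1 to 3, with a ratio of replicate 3 to replicate 1 of 1.74 (95% counting interval 1.63 to 1.85). Mthfd1l was left at 50.1%, 66.8% and 73.1%, with a ratio of 1.46 (1.33 to 1.599). Mthfd2 was left at 40.5%, 42.9% and 54.9%, with a ratio of 1.35 (1.25 to 1.47). The 3 intervals lay above 1, but they leave out the spread to be met between separate cultures. Shmt2 was left at 59.2%, 61.6% and 67.6%, and its ratio of 1.14 (1.10 to 1.19) was the smallest with an interval above 1. Phgdh was left at 61.3%, 58.3% and 65.0%, and its ratio of 1.06 (0.986 to 1.14) did not differ from 1 beyond counting error. By coefficient of variation, Phgdh (5.45%) and Shmt2 (6.92%) were the members with the least spread over KO.

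**Figure D2:**
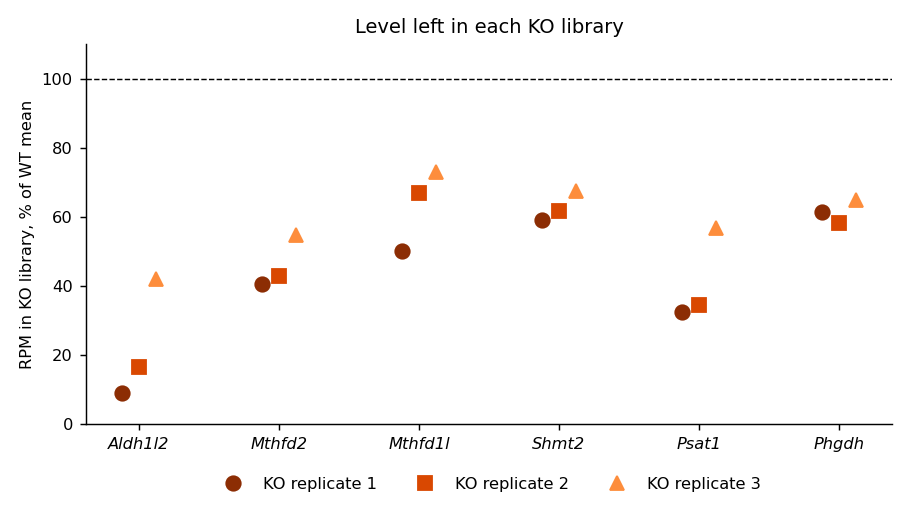
RPM of each member in each KO library as a percentage of the WT mean, which is the dashed line at 100%. KO replicate 3 is the highest KO library for each member; Aldh1l2 spans 9.15% to 42.004% and Phgdh 58.3% to 65.0%.

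KO replicate 1 was below KO replicate 3 in 6 of the 6 members, and was the lowest KO library in 5 of them, all but Phgdh. In the table KO replicate 1 was below KO replicate 3 in 57.5% of the genes and the lowest in 49.1%. Among the 673 genes lower in KO it was below in 569 (84.5%), so the side on which the members fell is the common one for lower genes. The median difference of KO replicate 3 from replicate 1 was 0.49 on the log2 scale over the members, 0.44 without Aldh1l2, and 0.29 over the lower genes.

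Exon length moved with this difference over the table. With the genes in 4 classes of like number, its median was -0.30 in the class with the shortest exon sums and 0.32 in the longest. The change between KO and WT ran with length as well, with medians from the shortest to the longest class of 0.63, 0.38, -0.33 and -0.42. Aldh1l2, with 7503 exon bases, belongs to the longest class, Mthfd1l and Psat1 with 4435 and 4254 bases to the third, Mthfd2 and Shmt2 with 3487 and 3109 bases to the second, and Phgdh with 2486 bases to the shortest. In the longest class 0 of the 349 genes exceeded Aldh1l2. With a trend in length removed from each library, the difference of Aldh1l2 between KO replicates 3 and 1 was 1.87 and its change against WT -2.36. The other members then had larger falls than before. Their log2 changes were -1.06 for Phgdh, -0.92 for Shmt2, -1.31 for Mthfd2, -0.77 for Mthfd1l and -1.43 for Psat1. The part of RNA quality in the spread and in the change was not tested.

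**Figure D3:**
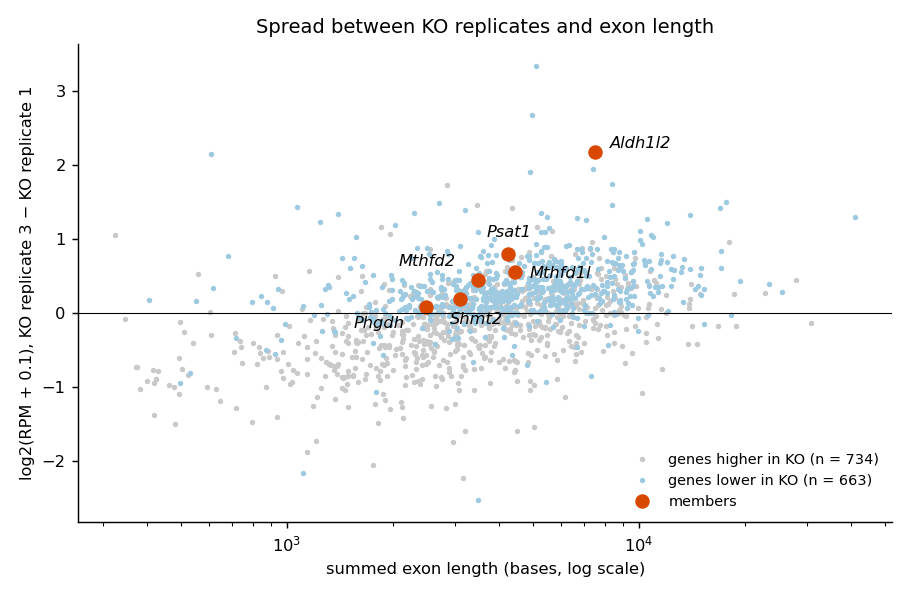
Difference of log2(RPM + 0.1) between KO replicates 3 and 1 against summed exon length (log scale) for the 1397 genes matched to the annotation, with genes higher in KO in grey, lower in KO in light blue and the members in orange. Aldh1l2 lies at 2.17 above all genes of its length class, and Phgdh at 0.08 near 0.

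The 10 listed genes with the profile most like that of Aldh1l2 over the 6 libraries, by Pearson correlation of log2(RPM + 0.1), were Clcn5, AC160637.1, Pgam1, Nampt, Tfrc, Atrn, Pfkp, Insig1, Scd1 and 4833439L19Rik. Their correlations lay between 0.997 and 1.00, but 465 genes reached 0.9, since all share the split between WT and KO by which the table was made. Among them are the glycolytic enzymes Pgam1 and Pfkp, the transferrin receptor Tfrc and the stearoyl-CoA desaturase Scd1. Scd1 was nearest in size: it was at 1095, 915 and 1053 RPM in WT and at 132, 245 and 495 RPM in KO. Correlation ignores the size of a change, and that of the other genes in this group was much smaller, with log2 changes between -0.37 and -1.04. Among the members Psat1 correlated at 0.984 and held place 97, Mthfd1l at 0.980, Mthfd2 at 0.9498, Shmt2 at 0.947 and Phgdh at 0.870, at place 526.

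The wider pathway was described through a list of 56 further genes of serine, folate, methionine and purine metabolism, of which 10 are in the table. In KO 7 of these were lower and 3 higher, with a median log2 change of -0.47, against 47.4% called lower and 52.5% called higher by limma over the table. Cth, which makes cysteine from cystathionine, was at 407, 383 and 455 RPM in WT and at 187, 187 and 232 RPM in KO, which left it at 48.7% of WT. Aldh1l1, the cytosolic counterpart of Aldh1l2, was at 251, 271 and 279 RPM in WT and at 186, 187 and 185 RPM in KO. Its log2 change of -0.52 was smaller than that of Aldh1l2, and its KO libraries were alike where those of Aldh1l2 were not. Sardh, the mitochondrial sarcosine dehydrogenase, was low in all libraries and fell from a range of 8.62 to 10.5 RPM to a range of 2.31 to 4.51 RPM. Unlike Aldh1l2, Sardh was highest in KO replicate 1. Ggh, which trims folate chains, Slc19a2, a thiamine carrier, and Mtfmt had log2 changes of -0.42, -0.40 and -0.51. Mtfmt attaches a formyl group to the mitochondrial initiator tRNA. The genes that were higher were Paics, an enzyme of purine synthesis (0.36 on the log2 scale), and Sfxn2 and Sfxn3 of the sideroflexin family of mitochondrial carriers (0.65 and 0.75).

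Of 50 amino acid response genes, a list of known ATF4 targets, tRNA synthetases and related factors, 26 are in the table. In KO 25 of these were lower, each with all KO values below all WT values (47.2% over the table), and 1 was higher. Their median log2 change was -0.68. Atf4 itself was at 545, 460 and 542 RPM in WT and at 347, 359 and 398 RPM in KO, a log2 change of -0.48 ± 0.12. Asns, the asparagine synthetase, was at 440, 391 and 513 RPM in WT and at 202, 180.0 and 257.5 RPM in KO, a log2 change of -1.08. Trib3, a pseudokinase that restrains ATF4, Chac1, which degrades glutathione, and Atf5, a related transcription factor, had log2 changes of -1.56, -1.44 and -1.38. The exception was Nupr1, with a log2 change of 0.37, which is also on the Paneth cell list below.

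The list holds 16 tRNA synthetases, the enzymes that charge tRNAs with amino acids. Of these 10 are in the table and all 10 were lower in KO (47.4% over the table), with log2 changes between -0.34 and -0.89. Nars, Aars and Sars, for asparagine, alanine and serine, were left at 65.4%, 59.2% and 74.9% of the WT level. Among genes of the mitochondrion, Lonp1, a protease, was left at 63.5% and Hspa9, a chaperone, at 73.2%. Aldh18a1, which begins proline synthesis, was left at 70.6% and Gsr, the glutathione reductase, at 70.4%. Me3, a mitochondrial malic enzyme that makes NADPH, moved the other way, from a range of 3.46 to 5.13 RPM in WT to a range of 18.1 to 24.2 RPM in KO.

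Of the 31 amino acid transporters 10 are in the table, 8 called lower and 2 called higher in KO by limma (47.4% and 52.5% over the table). Slc7a11, which exchanges cystine for glutamate, was at 22.2, 16.2 and 21.4 RPM in WT and at 4.75, 6.18 and 12.05 RPM in KO. As for Aldh1l2 and Psat1, KO replicate 3 was the highest of the KO libraries. Slc7a5, a carrier of large neutral amino acids, and Slc6a9, a glycine carrier, had log2 changes of -0.95 and -1.06. Slc6a6, Slc7a1, Slc6a19, Slc7a8 and Slc1a3 had log2 changes between -0.57 and -1.26. Slc6a6 and Slc7a1, carriers of taurine and of cationic amino acids, were lowest in KO replicate 1 (244 and 176 RPM) and highest in KO replicate 3 (431 and 307 RPM). Slc36a1 and Slc36a4, of a family of proton-coupled amino acid carriers, had log2 changes of 1.05 and 1.29. Of 20 aldehyde dehydrogenases 6 are in the table beside Aldh1l2, with log2 changes between -0.52 and 0.45, against -2.41 for Aldh1l2. Aldh1a1, Aldh9a1 and Aldh3a2 were left at 79.3%, 78.3% and 80.9% of the WT level, and Aldh6a1, the mitochondrial enzyme of valine breakdown, was the one that was higher. Ero1l, an oxidase of the endoplasmic reticulum, spread most among the 8 most abundant amino acid response genes, from 250.04 to 638 RPM over KO.

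**Figure D4:**
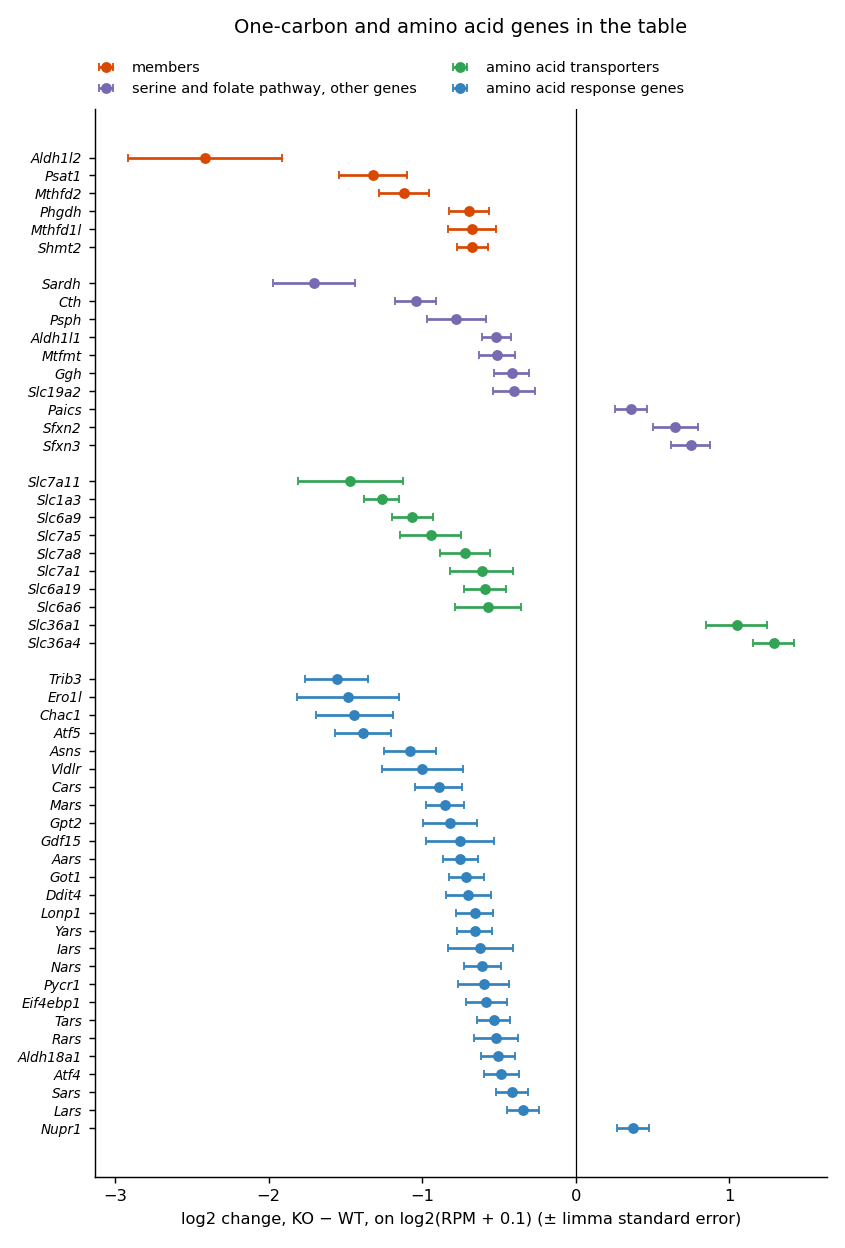
Log2 change in KO against WT (± limma standard error, 3 against 3 libraries) for the members and for the listed genes of 3 wider lists. The members lie between -2.41 and -0.67, and 25 of the 26 amino acid response genes lie below 0.

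Promoter sequences were read from the RefSeq table for GRCm38.p6, which matched 5 of the 6 members. Aldh1l2 has no entry there and was not searched. They were searched on both strands, from 250 bases before to 50 bases after the start, for TGATGNAA, the core of the C/EBP-ATF response element known from amino acid response genes. It was found in 0 of the 5 members searched and in 11 of 19 amino acid response genes with a promoter in the table (57.9%). The background was 3.44% over 1047 genes of the deposited table and 4.51% over 27025 genes. It was found in 3.28% of the listed genes lower in KO. The 11 genes include Nupr1, which was higher. Since the element is known from amino acid response genes, a high share in their list was foreseen, and it is no measure for the members. The following matches, in capitals, come from genes named above or from the same lists and show the element that was not found in this window of the 5 members searched. Each is read along the strand of its gene, and the match may stand in either orientation. The letters TGATGNAA also lie within the longer form TGATGCAAT.
Asns, chr6:7693215-7693242, minus strand: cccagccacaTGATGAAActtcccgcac
Chac1, chr2:119351039-119351066, plus strand: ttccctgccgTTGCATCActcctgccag
Trib3, chr2:152344029-152344056, minus strand: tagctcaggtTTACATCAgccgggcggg
Pycr1, chr11:120643834-120643861, minus strand: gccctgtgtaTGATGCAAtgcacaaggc
Slc7a11, chr3:50443662-50443689, minus strand: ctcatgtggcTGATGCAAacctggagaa

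The 250 bases before the start of Mthfd2 and of Psat1, the members with the largest changes among those matched, are shown with CCAAT boxes (CCAAT or ATTGG) in capitals, a motif looked for after these sequences had been read. Psat1 has 2 starts in the table, and the outer one is shown; the stretch before the other holds 0 boxes. The stretches shown for both genes lie inside the loci given above, which reach further upstream and whose ends are those of the deposited table.
Mthfd2, chr6:83317605-83317854, minus strand: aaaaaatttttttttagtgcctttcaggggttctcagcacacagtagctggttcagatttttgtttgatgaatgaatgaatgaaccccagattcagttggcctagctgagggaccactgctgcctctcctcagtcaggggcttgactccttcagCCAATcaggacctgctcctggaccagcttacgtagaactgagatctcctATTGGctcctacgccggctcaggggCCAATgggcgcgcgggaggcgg
Psat1, chr19:15925060-15925309, minus strand: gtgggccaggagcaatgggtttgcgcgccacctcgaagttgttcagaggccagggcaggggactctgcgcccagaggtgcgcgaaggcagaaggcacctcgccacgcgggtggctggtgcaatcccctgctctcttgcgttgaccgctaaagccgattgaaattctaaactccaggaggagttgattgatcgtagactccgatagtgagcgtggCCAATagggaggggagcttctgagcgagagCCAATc
Mthfd2 holds 3 such boxes in this stretch, Psat1 holds 2 and Phgdh holds 2, while Shmt2 and Mthfd1l hold 0. At least 2 boxes were found in 3 of the 5 members searched, in 8 of 19 amino acid response genes (42.1%), in 17.7% of the genes of the deposited table and in 11.5% of all genes with a promoter. For at least 1 box the members were the same 3 of 5, against 12 of 19, 44.9% and 37.5%. At least 4 boxes were found in 0 of the 5 members. The motif was picked with the sequences of the members known, so nothing is read from these shares. A match of letters is a description of the sequence and says nothing of binding.

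In these bulk samples, fewer cells of a type and less RNA per cell cannot be told apart. The markers of several epithelial cell types moved with the groups. Of 17 Paneth cell markers 14 were listed, and all 14 had their KO values above their WT values, against 51.3% over the table; their summed level was 9833 to 11226 RPM over WT and 20479 to 30579 RPM over KO. All 6 listed goblet cell markers of 13 were higher (2029 to 2275 against 3151 to 5817 RPM), as were all 6 listed enteroendocrine markers of 18 (271 to 325 against 441 to 628 RPM). Of the enterocyte markers 12 of 21 were listed and 10 of these were lower (47.4% over the table), with a summed level of 22562 to 25654 RPM over WT and 16400 to 17811 RPM over KO. Of the proliferation markers 1 of 22 was listed, Rrm2, with a log2 change of -0.41, of the stem cell markers 2 of 13, both higher, and of the tuft cell markers 1 of 11, Dclk1, with a log2 change of -0.90. Of 21 markers of immune, stromal, endothelial and neural cells only Lyz2 was listed, at 1.31 to 2.41 RPM in WT and 3.71 to 6.04 RPM in KO. Lyz2 is also a Paneth cell marker. None of the listed markers was at 0 in all libraries.

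The summed secretory markers were highest in KO replicate 1 and lowest in KO replicate 3. This is the common side for higher genes, since KO replicate 1 was below KO replicate 3 in only 33.2% of the 747 listed genes higher in KO. The summed Paneth cell markers stood at 290.1% of the WT mean in KO replicate 1, at 234% in replicate 2 and at 194% in replicate 3. The summed members stood at 47.9%, 50.8% and 62.5% in the same libraries, and the amino acid response genes at 56.8%, 58.8% and 69.0%. The enterocyte markers did not follow this order, with 67.2%, 73.0% and 70.0%. The part of cell composition in the level of the members was not tested.

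**Figure D5:**
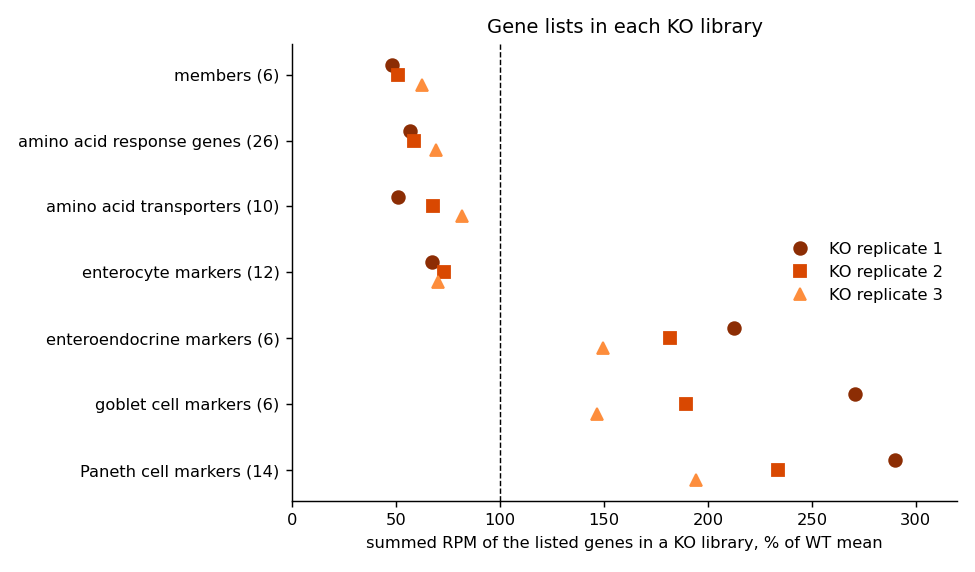
Summed RPM of each gene list in each KO library as a percentage of the WT mean (dashed line at 100%), with the number of listed genes in brackets. KO replicate 1 is the lowest for the members (47.9%) and the highest for the Paneth cell markers (290.1%).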

How the data were processed

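The RNA libraries analysed were 3 WT and 3 KO organoid libraries, grouped by their sample titles. Per the methods and the submitters' processing notes, the authors trimmed reads with Trim Galore 0.4.2, mapped them to GRCm38 with HISAT2 2.0.3, counted unique reads over merged exons in SeqMonk and tested raw counts with DESeq2. The deposited table holds the genes that passed, with RPM values, which the authors scaled to library depth, and FDR values (corrected p-values), which were not used. In each library a common step divided 100% of the values to whole numbers (tolerance 0.1 reads) and was taken as 1 read; intervals from these reads are exact and cover counting error only. These inferred reads were not used in a count test.

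All 1420 genes were fitted with limma 3.58.1 (R 4.3.3) on log2(RPM + 0.1), two-sided, with Benjamini-Hochberg adjustment and no covariate. The fit was tested on simulated data. Exon lengths come from GENCODE M21 (1397 genes matched). Members, gene lists and the length trend were chosen with earlier results of these data known. Named are the members, the 8 listed genes of highest mean RPM of each pathway list and the 10 genes most correlated with Aldh1l2; Csgalnact1, Rims4, Trib3, Chac1, Atf5, Nupr1, Sardh, Sfxn2, Slc7a11, Slc36a4, Pycr1, Rrm2, Dclk1 and Lyz2 were named after their values were seen. Protein sequences were not used here.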

Additional observations from a re-analysis of the deposited data

How the results depend on the processing

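The direction of each member and its side of the limma threshold (adjusted p-value under 0.05) stayed the same under the 12 alternatives run: a pseudocount of 1, dropping genes with a mean RPM in the lowest 25%, centring of libraries, a replicate block, an intensity trend, removal of the length trend, and leaving out each library. Since the table was chosen on these libraries, nothing is read from this. Without 1 library in turn, the log2 change ran from -2.998 to -1.91 for Aldh1l2, from -1.25 to -1.03 for Mthfd2, from -0.79 to -0.52 for Mthfd1l, from -0.73 to -0.63 for Shmt2, from -1.57 to -1.18 for Psat1 and from -0.77 to -0.58 for Phgdh. With the length trend removed Phgdh changed by -1.06. The count of genes past the threshold ran from 1138 to 1404 without 1 library, and 6 members lay below WT each time. Centring shifted libraries by at most 0.08 on the log2 scale. The difference of Phgdh between KO replicates 3 and 1 was 0.00046 with centred libraries and 0.21 with the length trend removed; the cause was not tested. In place of TGATGNAA, TGATGCAAT was found in 4 of the 19 amino acid response genes (0.57% of the listed genes), and CACGTG and TGACGTCA, added after seeing the data, in 7 and 0 (12.1% and 2.67%); in the members each was found in 0.

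Under a replicate block 1351 genes passed, 637 of them lower, and the log2 change of Aldh1l2 was again -2.41. WT and KO libraries with the same number had correlations of -0.08, 0.09 and 0.06 between their deviations, so the numbers were not taken as a pairing. Aldh1l2 in KO replicate 1 rests on 55 reads, which allow 3.34 to 5.76 RPM.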
